A study of Mus musculus with 6 samples.

Results

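The Trim30 cluster and related Trim genes comprise 10 mouse genes of the tripartite motif family, namely Trim30a, Trim30b, Trim30c, Trim30d, Trim12c, Trim34a, Trim21, Trim25, Trim14 and Trim26. They were chosen by gene symbol from the annotation of the array, with earlier results of the same comparison known. All 10 had a probe set of their own among the 22180 genes tested. Where a gene had several, the one with the highest mean over the 6 arrays stood for it, and this applied to Trim34a alone. The differences between groups given for these genes are therefore a description, without a test of their own. Values were measured in Raw 264.7 cells, an established mouse line of monocytes and macrophages, grown in medium with 10% serum, starved, and then kept in 2% serum. The 3 arrays labelled IL-33 came from cells given the IL-1 family cytokine IL-33 at 50 ng/ml, and the 3 labelled PBS came from cells without it, each array giving 1 log2 expression value per probe set. No source used here gives the duration of treatment, and nothing states whether the samples of a group were separate cultures, so the errors may be technical.

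The array names in the sample descriptions run against the titles, with the letters IL on the arrays titled PBS and the letter P on those titled IL-33. Groups follow the titles, and every direction would turn if the titles were exchanged. Array medians lay between 5.31 and 5.36 (log2), and the first principal component separated the titled groups. All 8 macrophage markers read between 9.53 and 12.92 (log2), among them Ptprc, Csf1r and Lyz2. Averaged over each array, they lay at 11.54 to 11.55 in the IL-33 arrays and at 11.56 to 11.57 in the PBS arrays. None of the 8 passed the threshold used below, with 4 differences above 0 and 4 below. The largest in size was that of Adgre1, at -0.29 ± 0.06 (log2, SE), with every IL-33 array below every PBS array. The 14 measured markers of fibroblasts, endothelium, epithelium, lymphocytes and mast cells read between 3.56 and 6.42. Averaged over each array, those 14 markers lay at 4.75 to 4.86 in the IL-33 arrays and at 4.84 to 4.87 in the PBS arrays, and none of them passed the threshold used below. The table has no detection calls, so the ranges of these markers, which are levels of different probe sets, are given as a description only.

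Tripartite motif proteins typically hold a RING finger, B-box domains and a coiled coil, though not every one has all of them, and most act as ubiquitin ligases. Many of the family are induced by interferons and act in antiviral defence or in the control of innate immune signalling in macrophages. A run of closely related genes, which includes the rodent-specific Trim30 genes, lies together on mouse chromosome 7. Type I interferon acts on many of its target genes through a promoter element known as the ISRE.

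Trim30d was the member with the largest difference. Its log2 values were 7.38, 7.31 and 7.54 in the IL-33 arrays, against 5.15, 5.52 and 5.48 in the PBS arrays. The groups did not overlap, and a gap of 1.80 log2 units separated the lowest IL-33 array from the highest PBS array. The means were 7.41 ± 0.12 in the IL-33 arrays and 5.38 ± 0.20 in the PBS arrays (SD, n = 3 each), a difference of 2.03 ± 0.11 (log2, SE) or 4.09-fold. It was the single member of 10 to pass an adjusted p under 0.05 in the fit across all genes (limma, Benjamini-Hochberg), a threshold that 0.591% of all genes passed in either direction. Trim30d also passed in each of the 6 fits that left out 1 array, with differences between 1.91 and 2.10, and in all 7 other alternative settings. These are values of RNA from whole cultures, in which more cells expressing a gene and more of its RNA per cell cannot be told apart.

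Trim30c and Trim30a, the loci before Trim30d in the order of Trim genes on the chromosome, differed less. Trim30c read 5.52, 5.57 and 5.70 in the IL-33 arrays, against 5.03, 4.58 and 4.99 in the PBS arrays, and its groups were 0.49 log2 units apart. Its difference was 0.73 ± 0.12 (log2, SE), or 1.66-fold, and it did not pass. PBS replicate 2 held the lowest value, and without that array the difference was 0.59. All PBS values of Trim30c lay below the array medians (5.31 to 5.36), and without detection calls they cannot be told from background. Trim30a, which encodes a ubiquitin ligase known in mouse macrophages to restrain Toll-like receptor signalling through the adaptors TAB2 and TAB3, read 8.09, 8.05 and 8.25 in the IL-33 arrays, against 7.79, 8.01 and 7.85 in the PBS arrays. These groups were apart by 0.041 log2 units, with a difference of 0.25 ± 0.08 (log2, SE) or 1.19-fold that did not pass.

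Trim30b did not share this direction. It read 3.91, 4.03 and 4.16 in the IL-33 arrays, against 4.07, 4.06 and 4.10 in the PBS arrays. The 3 PBS values lay inside the range of the IL-33 values, the difference was -0.04 ± 0.07 (log2, SE), and its sign turned to 0.02 without IL-33 replicate 1. All values of Trim30b lay below the array medians (5.31 to 5.36). Without detection calls, such dim values cannot be told from background. Of the 4 Trim30 genes, 3 had every IL-33 array above every PBS array, as 10.3% of all genes had, with differences of 0.25 to 2.03. Since the transcripts of paralogs can be alike, a probe set of one Trim30 gene may also bind RNA of another, and the part of this in the values was not tested.

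**Figure D1:**
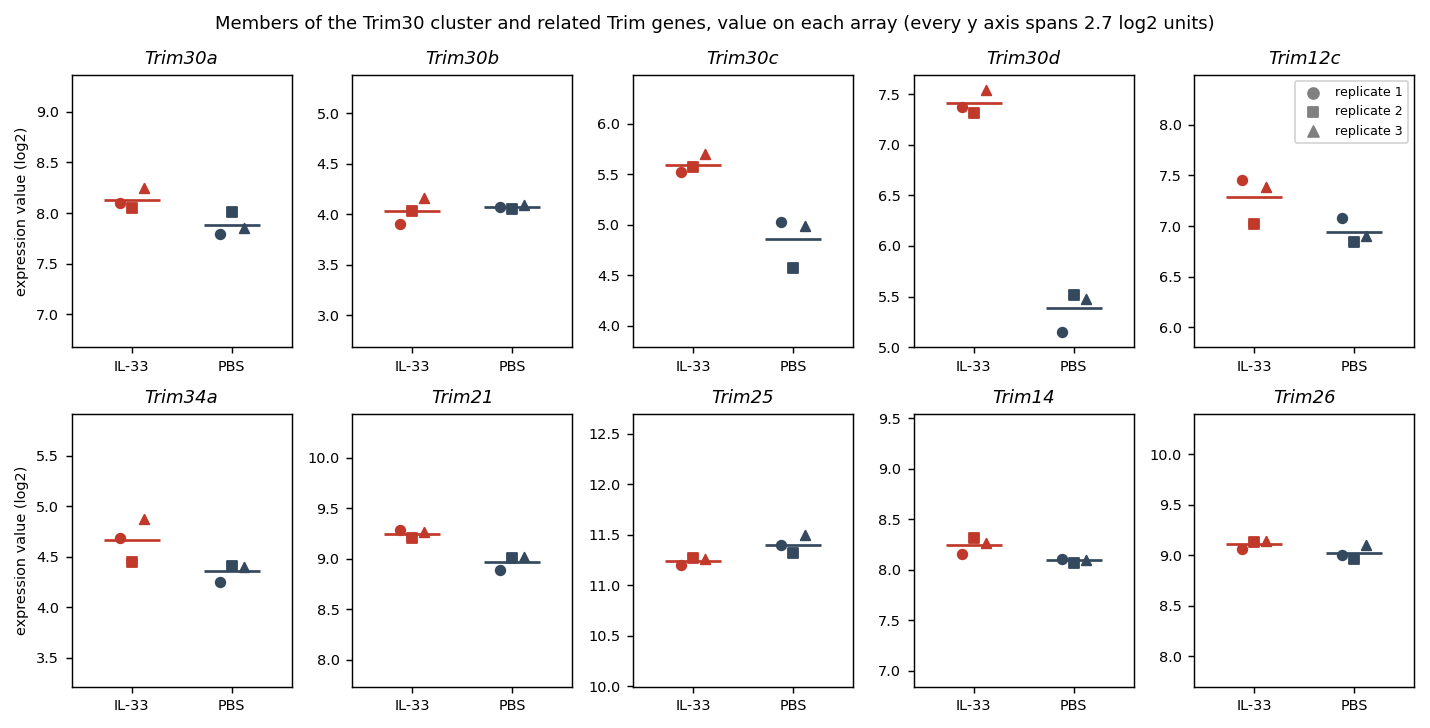
Log2 expression value of the 10 members on each of the 6 arrays, IL-33 left and PBS right in every panel, with symbols for the replicate number and a line at the mean of 3 arrays; every axis spans the same number of log2 units around its own centre. Trim30d shows the widest separation, at means of 7.41 in the IL-33 arrays and 5.38 in the PBS arrays, and Trim30b, Trim12c and Trim26 overlap between groups.

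The promoter windows of the 4 Trim30 genes are shown so that the sequences before the starts of these paralogs can be compared. The windows run from 250 bases before to 50 bases after a transcript start, 5′ to 3′ on the strand of the gene, and come from RefSeq on build GRCm38.p6. Capitals mark matches to the ISRE core GAAANNGAAA on either strand.
Trim30d promoter (chr7:104507800-104508099, - strand): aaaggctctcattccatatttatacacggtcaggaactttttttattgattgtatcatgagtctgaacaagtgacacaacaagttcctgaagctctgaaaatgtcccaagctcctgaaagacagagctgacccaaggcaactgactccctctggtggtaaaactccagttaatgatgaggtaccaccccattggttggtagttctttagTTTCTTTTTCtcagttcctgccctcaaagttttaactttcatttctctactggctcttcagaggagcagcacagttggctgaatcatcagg
Trim30a promoter (chr7:104465144-104465443, - strand): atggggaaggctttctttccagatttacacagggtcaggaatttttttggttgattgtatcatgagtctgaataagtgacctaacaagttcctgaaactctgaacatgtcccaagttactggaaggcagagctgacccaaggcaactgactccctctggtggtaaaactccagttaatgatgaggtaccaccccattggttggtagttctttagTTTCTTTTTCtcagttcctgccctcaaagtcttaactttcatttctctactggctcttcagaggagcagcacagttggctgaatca
Trim30c promoter (chr7:104400729-104401028, - strand): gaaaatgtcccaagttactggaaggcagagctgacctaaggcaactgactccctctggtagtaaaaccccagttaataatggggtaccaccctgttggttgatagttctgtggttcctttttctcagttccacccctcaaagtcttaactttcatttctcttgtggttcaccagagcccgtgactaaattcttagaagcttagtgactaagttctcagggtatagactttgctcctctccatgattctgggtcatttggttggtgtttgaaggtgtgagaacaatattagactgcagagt
Trim30b promoter (chr7:104358597-104358896, - strand): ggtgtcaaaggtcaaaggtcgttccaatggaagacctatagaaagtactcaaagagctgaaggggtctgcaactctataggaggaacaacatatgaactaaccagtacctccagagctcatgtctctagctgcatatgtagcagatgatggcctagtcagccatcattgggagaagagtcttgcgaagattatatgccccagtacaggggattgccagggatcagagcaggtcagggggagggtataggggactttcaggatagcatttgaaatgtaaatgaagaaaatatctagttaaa

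The Trim30d and Trim30a windows were identical at 276 of 294 aligned columns (93.9%), and both held the same ISRE core match, TTTCTTTTTC, on the opposite strand. A further window of Trim30a, at another transcript start, held it too. The Trim30c window aligned to that of Trim30d over 176 columns with 86.9% identity and had no match. At the bases aligned to the Trim30d match it carried 1 substitution, T3C, counted from 1 at the 5′ end of the match as printed. In the Trim30b window no match was found, and no stretch of it aligned to those bases. Any part of these letters in the differences was not tested.

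Of the 10 members, 9 had at least 1 window, the exception being Trim14, and 6 of these 9 held the ISRE core. Among 10 windows of members 7 held it (70%), against 3 of 63 windows of other Trim genes (4.76%) and 3.44% of 32851 windows of all genes. Trim30a entered with 2 windows, 93.9% and 86.5% identical to that of Trim30d where aligned, so the windows are not independent. Trim12a and Trim5, with the match of Trim12c, were among the other Trim genes that held it. The members were chosen with earlier results known, and these shares were not tested. The other 3 members with a match on chromosome 7 were Trim34a with TTTCAGTTTC, Trim12c with TTTCTGTTTC, and Trim21 with the 2 overlapping matches GAAACTGAAA and GAAAGTGAAA. Trim26 had 2 overlapping matches as well, TTTCACTTTC and TTTCCTTTTC, and Trim25 had none. A GAS element, searched as TTCNNNGAA, which reads the same on both strands, was found in 1 of the 10 windows, that of Trim30c, and in 8.3% of all windows. The kappaB motif, searched on both strands, was found in none of the 10 and in 4.51% of all windows. Such matches describe letters in a window, and no binding was measured.

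Trim12c and Trim34a lie in the same run of chromosome 7, before the Trim30 genes in its order. Trim12c, a mouse relative of the retroviral restriction factor Trim5, read 7.45, 7.02 and 7.38 in the IL-33 arrays, against 7.08, 6.84 and 6.90 in the PBS arrays. IL-33 replicate 2 lay below PBS replicate 1, so the groups overlapped, and the difference of 0.34 ± 0.12 (log2, SE) did not pass. Trim34a read 4.69, 4.45 and 4.87 in the IL-33 arrays, against 4.25, 4.41 and 4.40 in the PBS arrays. Its groups were apart by 0.036 log2 units, and the difference of 0.31 ± 0.11 (log2, SE) did not pass. A dimmer probe set of Trim34a alone differed by 0.08.

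Another 3 probe sets carried the symbols of both a member and a neighbour, so their genes are not separable. The one annotated to Trim34b and Trim34a read 8.42, 8.01 and 8.07 in the IL-33 arrays, against 7.95, 7.98 and 8.03 in the PBS arrays. Its groups overlapped. Of the 2 annotated to both Trim12c and Trim5, one read 8.23, 7.89 and 7.95 in the IL-33 arrays, against 7.74, 7.79 and 7.69 in the PBS arrays, with no overlap and a difference of 0.28. The other differed by 0.05 with overlapping groups. IL-33 replicate 1 held the highest value of Trim12c and of the 2 shared probe sets with the larger differences, whereas IL-33 replicate 3 held the highest IL-33 value in 6 of the 10 members.

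In the order of the chromosome, the run from Trim6 to the pseudogene Trim30e-ps1 holds 11 Trim loci, of which 9 had a probe set of their own. Differences above 0 were not shared by all of them. Trim6, at one end, differed by -0.22 ± 0.12 (log2, SE), and Trim12a, which lies between Trim34a and Trim12c, by -0.06 ± 0.08 (log2, SE). Trim30e-ps1, which follows Trim30d at the other end, differed by 0.05 ± 0.06 (log2, SE). None of these 3 passed and the groups overlapped in each. Their means in IL-33 and PBS arrays were 4.14 and 4.35 for Trim6 and 4.26 and 4.31 for Trim12a (log2). Those of Trim30e-ps1 were 2.90 and 2.85. These levels lie below all array medians (5.31 to 5.36), as do those of Trim34a, whose groups did not overlap. The processing of the values compresses differences of dim probe sets, and no detection calls were given. The Trim12a and Trim5 windows held the same ISRE core match as that of Trim12c, and the Trim12a window was 94.6% identical to that of Trim12c over 261 aligned columns. Trim68 and Trim3, Trim genes elsewhere on the chromosome and not members, differed by 0.04 ± 0.07 and -0.05 ± 0.07 (log2, SE). The other measured non-members there, Trim28, Trim66 and Trim72, differed by -0.03, 0.05 and -0.07 (log2). None of these 5 passed. The member Trim21 also lies on this chromosome outside the run, and differed by 0.28 ± 0.06 (log2, SE).

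**Figure D2:**
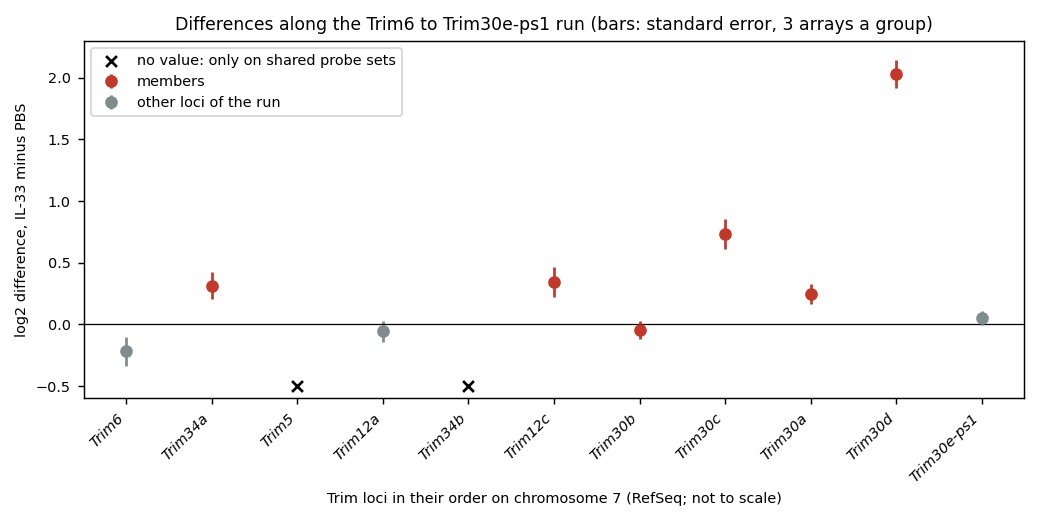
Log2 difference, IL-33 minus PBS, with its standard error (3 arrays a group) for the Trim loci from Trim6 to Trim30e-ps1, in their order on chromosome 7 and not to scale; crosses at the foot mark the 2 loci with no probe set of their own and stand for no value. The highest point is Trim30d at 2.03, beside Trim30a at 0.25 and Trim30e-ps1 at 0.05.

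The 4 members outside the run had differences of 0.28 or less in size. Trim21, the cytosolic Fc receptor also known as the autoantigen Ro52, read 9.28, 9.20 and 9.26 in the IL-33 arrays, against 8.88, 9.00 and 9.02 in the PBS arrays. Its groups were 0.19 log2 units apart, with a small spread within each, and the difference was 0.28 ± 0.06 (log2, SE). It did not pass over all genes, but passed when the dimmer part of genes was left out, as 760 of 11090 genes did. It also passed with a trended and robust prior variance, as 1000 of 22180 genes did. Trim14, an adaptor of mitochondrial antiviral signalling, read 8.16, 8.32 and 8.27 in the IL-33 arrays, against 8.11, 8.07 and 8.10 in the PBS arrays. These groups were just apart, and the difference of 0.16 ± 0.06 (log2, SE) did not pass.

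Trim25 lay the other way. This ubiquitin ligase, which acts on the RNA sensor RIG-I, read 11.20, 11.27 and 11.26 in the IL-33 arrays, against 11.40, 11.31 and 11.49 in the PBS arrays. All IL-33 values were below all PBS values, by 0.042 log2 units at the nearest, and the difference of -0.16 ± 0.06 (log2, SE) did not pass. Trim26, a ubiquitin ligase of the interferon regulatory pathway, read 9.06, 9.14 and 9.14 in the IL-33 arrays, against 9.01, 8.96 and 9.10 in the PBS arrays. Its groups overlapped, and the difference was 0.09 ± 0.06 (log2, SE).

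Across the 10 members, 6 had every IL-33 array above every PBS array, which held for 10.3% of all genes, and 1 had every IL-33 array below, which held for 10.1%. Differences were above 0 in 8 members, as in 47.9% of all genes, and below 0 in 2, with a median of 0.26, beside a median of -0.01 over all genes. Because the list was made with this comparison known, these counts describe it and carry no further reading.

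Of 62 further genes of the Trim family, 57 had a probe set of their own. None of the 57 passed an adjusted p under 0.05 (limma), as 0.591% of all genes did, while 3 had an unadjusted p under 0.05, as 13.2% of all genes had, of which 1 was higher and 2 lower. Differences ran between -0.22 and 0.21 with a median of 0.01, 29 lay above 0 and 28 below, and the groups did not overlap in 4 of the 57, as in 20.3% of all genes. The 2 genes with the smallest p were Trim62, at -0.20 ± 0.05 (log2, SE; limma adjusted p = 0.176), and Pml, which organises nuclear bodies and is a known interferon target, at 0.21 ± 0.06 (log2, SE; limma adjusted p = 0.176). Pml read 10.35, 10.30 and 10.30 in the IL-33 arrays, against 10.09, 10.04 and 10.18 in the PBS arrays, without overlap. Of the members, 6 thus had larger positive differences than any of the 57, as the plot of the Trim family shows, a statement of rank that was not tested.

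**Figure D3:**
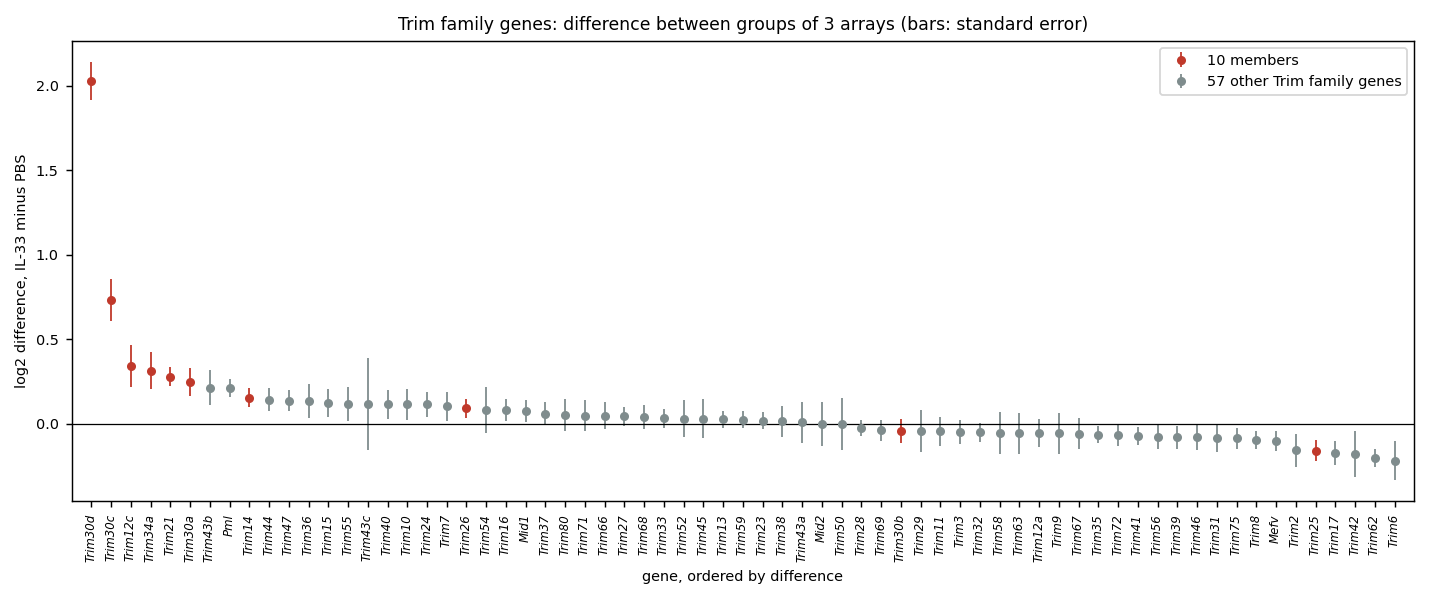
Log2 difference, IL-33 minus PBS, with its standard error (3 arrays a group) for 67 Trim family genes ordered by difference, the 10 members in red and 57 other genes in grey. Trim30d at 2.03 and Trim30c at 0.73 lie above the rest, and the 57 other genes lie between -0.22 and 0.21.

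Proteins on which the members are known to act, together with the interferon receptor pathway, were read in the same fit. Of 27 genes 24 were analysed here, 2 rose, as 0.275% of all genes did, none fell and 22 did not pass. Isg15, the ubiquitin-like modifier that interferons induce, read 8.97, 8.97 and 9.00 in the IL-33 arrays, against 8.57, 8.61 and 8.58 in the PBS arrays, and rose 1.31-fold (limma adjusted p = 0.0238). Stat2, which encodes a transcription factor of the interferon response, read 10.84, 10.82 and 10.69 in the IL-33 arrays, against 10.32, 10.38 and 10.40 in the PBS arrays, and rose 1.34-fold (limma adjusted p = 0.0408). Both calls were lost in each of the 6 fits that left out 1 array, and both with the replicate number as a block, and that of Stat2 also after a further quantile normalization. In 10 of the 24 every IL-33 array lay above every PBS array (10.3% of all genes) and in 2 every one lay below (10.1%), and 7 had an unadjusted p under 0.05 (13.2%), 6 of them higher. The median of the 24 differences was 0.05, beside -0.01 over all genes.

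The partners of single members named here differed by 0.26 or less in size. Tab2 and Tab3, the adaptors on which Trim30a acts, differed by 0.04 ± 0.05 and -0.07 ± 0.05 (log2, SE), and the kinase gene Map3k7 downstream of them by -0.01 ± 0.05 (log2, SE). Ddx58, which encodes RIG-I, the substrate of Trim25, differed by 0.22 ± 0.05 (log2, SE), and Mavs, its mitochondrial adaptor, by 0.04 ± 0.06 (log2, SE). Zc3hav1, the antiviral protein for which Trim25 is a cofactor, differed by -0.18 ± 0.05 (log2, SE). Of the transcription factors that switch on interferon genes, Irf3 differed by -0.06 ± 0.05 and Irf7 by 0.26 ± 0.05 (log2, SE). None of these 8 genes passed, with adjusted p between 0.0966 and 0.983 (limma). Ddx58 and Irf7 passed as higher when the dimmer part of genes was left out, as 401 of 11090 genes did. Both also passed as higher with a trended and robust prior variance, as 530 of 22180 genes did. Zc3hav1 passed as lower in the latter setting, as 470 of 22180 genes did.

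**Figure D4:**
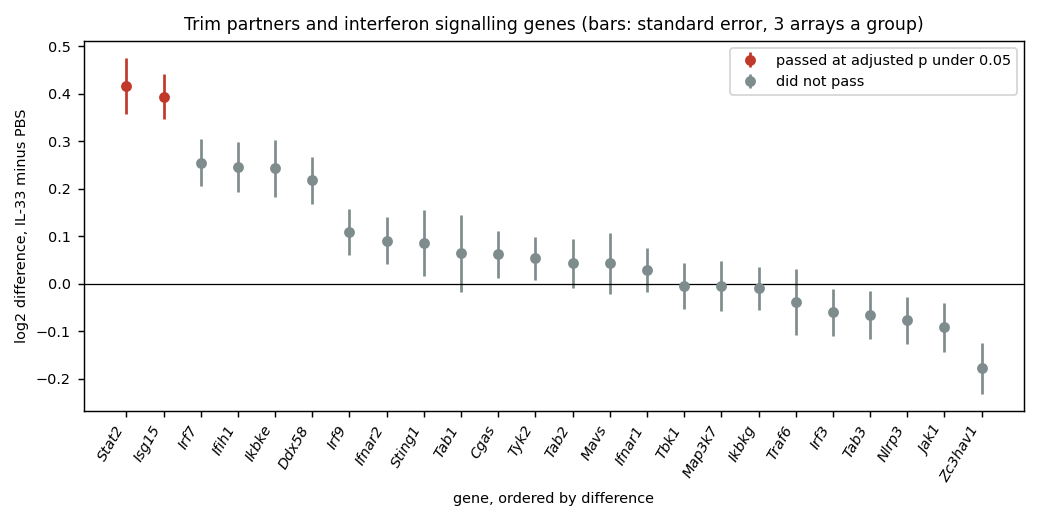
Log2 difference, IL-33 minus PBS, with its standard error (3 arrays a group) for 24 genes that encode partners of the Trim proteins or interferon signalling proteins, ordered by difference, with genes that passed in red. Stat2 at 0.42 and Isg15 at 0.39 passed, and Zc3hav1 at -0.18 is the lowest.

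The genes whose values over the 6 arrays were most like those of Trim30d were ranked by Pearson correlation among the 130 genes outside these lists with a difference of at least 0.5 in size. The first 5 were the immunoproteasome subunit Psmb9 (r = 0.997), the nucleic acid sensor Zbp1 (r = 0.997), the phosphodiesterase Pde7b (r = 0.995), the D-type cyclin Ccnd2 (r = 0.994) and the interferon-induced Mx1 (r = 0.993). These correlations share the step between the groups of 3 arrays and are given as a description. The differences of the 5 were 0.54, 0.53, 0.76, 0.55 and 1.49 in the same order. That of Trim30d, 2.03, was the highest of all 22180 genes, so these 5 were bound to be smaller.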

How the data were processed

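Labelled cDNA was hybridised to whole-transcript arrays, 3 titled IL-33 and 3 titled PBS. The deposited values are log2 expression values per probe set made with RMA, per the submitters' processing notes; its version is not given in the sources used. RMA, which corrects background, normalizes by quantiles and summarises probes by median polish, makes arrays alike in distribution and compresses differences of dim probe sets. No detection calls or array build were given.

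Of 41345 probe sets, 23521 carried 1 gene symbol and 1814 several. Each of 22180 genes was represented by its single-symbol probe set with the highest mean. No further normalization was applied, and limma 3.58.1 (R 4.3.3; lmFit, eBayes, 1 group coefficient) was fitted, with Benjamini-Hochberg adjustment over all genes at 0.05. The fit was checked on simulated data. Promoter windows were searched in Python 3.11.15, aligned locally with Biopython 1.88, and figures drawn with matplotlib 3.10.9.

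The members and the gene lists were chosen with earlier results of these data known. Named were all members, genes of the other lists that passed or otherwise the 2 with the smallest p, the Trim genes of the run and Trim68 and Trim3, and the 5 genes most like Trim30d. Trim28, Trim66, Trim72 and the partners of single members were named after their values were seen. In the partner list 2 symbols were matched through synonyms. Alternatives were a filter on dim genes, 2 further normalizations, the mean of all probe sets, the replicate block, a trended and robust prior variance, array weights, and leaving out each array.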

Additional observations from a re-analysis of the deposited data

How the results depend on the processing

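Of 127 differences of members under the alternatives, 123 kept their direction and their side of the threshold, 3 newly passed and 1 turned. The filter on dim genes, the replicate block and the trended and robust prior variance leave the difference itself unchanged by construction. The mean of all probe sets could change it for Trim34a alone. In those cases the direction could not turn. Those that newly passed were Trim30c with a trended and robust prior variance (adjusted p = 0.00503, limma) and Trim21 with it and when genes below the median mean value were left out. The one that turned was Trim30b, at 0.0191 without IL-33 replicate 1, in a range of -0.1068 to 0.0191 over the fits without 1 array. The count of members that passed was 1, and it was 2 when only genes not below the median mean value were tested, where 7 members were tested, and 3 with the trended and robust prior variance. Leaving out 1 array left it at 1. Over all genes 131 of 22180 passed, 760 of 11090 among the brighter genes and 1000 of 22180 with the trended and robust prior variance. A pass was thus more common among all genes in those settings. Without 1 array 15 to 83 passed (15 without IL-33 replicate 2). Over all 41345 probe sets 17 passed, an alternative chosen after seeing the data in which controls were not told apart. The planned version without controls was not run. Of the other Trim genes 0 passed, and 1, Pml, passed among the brighter genes and with the trended and robust prior variance, with 0 in each fit without 1 array. Of the partner genes 2 passed, 6 among the brighter genes, 1 after a further quantile normalization, 7 with the trended and robust prior variance (6 higher and 1 lower) and 0 without any 1 array. The cause of these changes was not tested, and fewer genes or arrays entered some of the fits.

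With the replicate number as a block, 21 genes passed over all genes, 0 partner genes and 1 member, Trim30d. The numbers were not taken as pairs, since nothing states a shared culture or day and same-numbered arrays deviated together at r = 0.040, 0.057 and 0.019. Arrays give no count depth, and the number of arrays limits the precision.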
